A study of Mus musculus with 8 samples.

Results

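The genes described here are 9 markers of position along the liver vasculature: 4 connexin genes (Gja1, Gja4, Gja5 and Gjc1) together with Kit, Lhx6, Cdh13, Cd200 and Bmx. They were taken by name, as every row of the deposited ATAC-seq peak table whose assigned gene is one of them. This gave 57 peaks of 58522 listed, belonging to 9 of 17780 genes with a peak. ATAC-seq reads where Tn5 transposase can cut, so a peak is a stretch of open chromatin, and the table assigns each peak to the gene with the nearest transcription start.

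Liver sinusoidal endothelial cells (LSECs) line the capillaries that carry blood from the portal field to the central vein, and their gene expression changes gradually along that path. Connexins are the subunits of gap junctions, the channels that join the cytoplasm of neighbouring cells, and different vessel types use different members. Gja4, Gja5 and the kinase gene Bmx are known from arterial and portal endothelium, whereas Kit and Cdh13 mark endothelium near the central vein. Lhx6 was placed with the central genes, with less certainty, and Gja1, Gjc1 and Cd200 were given no zone.

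LSECs came from 12-week-old mice, 4 libraries from control mice and 4 from MafLSEC-KO mice. MafLSEC-KO mice carried the Clec4g-iCre transgene and 2 floxed Maf alleles, which removes Maf and with it the transcription factor c-Maf where Clec4g is active, mainly in LSECs. Controls were littermates with no Cre transgene, and they too carried floxed Maf, as Maf fl/fl or Maf fl/wt. Cells were selected on CD146, a surface protein of all endothelium, so cells of larger vessels can be among them. The labels name 3 mice per genotype against 4 libraries and tie no library to an animal, and the methods speak of pooled tissue, so the p-values rest on spread between libraries that may be technical.

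Libraries held between 5367124 and 13364062 counts in peaks. Control replicates 1 and 3 were the shallowest (5367124 and 5529802 counts) and control replicate 4 the deepest (13364062 counts). At the Maf start site, a peak on chromosome 8 (mm10 115706763 to 115708356), CPM, the count scaled to the size of its library, was 57, 69.4, 62.9 and 81.9 in controls and 18.4, 11.4, 13.7 and 8.36 in MafLSEC-KO libraries, so each library matched its label. All 8 endothelial marker genes had peaks and 1 of them fell, Stab2, at a log2 fold change of -0.65. The paper names Stab2 as a c-Maf target from footprints in these same ATAC-seq data, so its fall is no independent finding. Among marker lists of other cell types, which included hepatocytes (3 of 6 genes with a peak), macrophages (4 of 6), stellate cells (3 of 5), cholangiocytes (2 of 4) and lymphocytes (2 of 6), no gene passed edgeR's or DESeq2's test in either direction. Of the 19 such genes with a peak, 1 was higher and 1 lower at an unadjusted p under 0.05. The paper's flow cytometry of cells isolated in this way gave a lower share positive for LYVE1 and/or CD31 in MafLSEC-KO than in control cells. These endothelial markers themselves changed in the paper's staining, LYVE1 down and CD31 up in MafLSEC-KO livers. The share positive for CD11b, a myeloid marker, was higher in MafLSEC-KO. Which of these differences passed the paper's test is not given in its text. In such a mixed preparation, fewer cells with an open site and a less open site in each cell cannot be told apart.

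Accessibility of the 9 genes was first compared as the sum of counts over all peaks of a gene. Values are CPM given in replicate order, and log2 fold changes set MafLSEC-KO against control, from edgeR's quasi-likelihood test, with its standard error (SE) and a p-value adjusted by Benjamini-Hochberg over all 17745 genes tested. Gja5, Lhx6 and Cd200 rose, Gja1 fell, and 5 genes did not pass an adjusted p of 0.05. Among all genes tested, 5.65% rose and 4.05% fell, with a median log2 fold change of -0.02. The groups did not overlap in 5 of the 9 genes (Gja5, Lhx6, Gja1, Gjc1 and Cd200), against 16.2% of all genes. With the replicate number as a block, 5 members rose and 2 fell, because Bmx (0.65, adjusted p = 0.0097) and Gjc1 (0.65, adjusted p = 0.0108) then rose and Kit (-0.33, adjusted p = 0.00044) fell. Only 1 member rose in the fit without control replicate 2, and likewise without MafLSEC-KO replicate 2, 3 or 4.

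**Figure D1:**
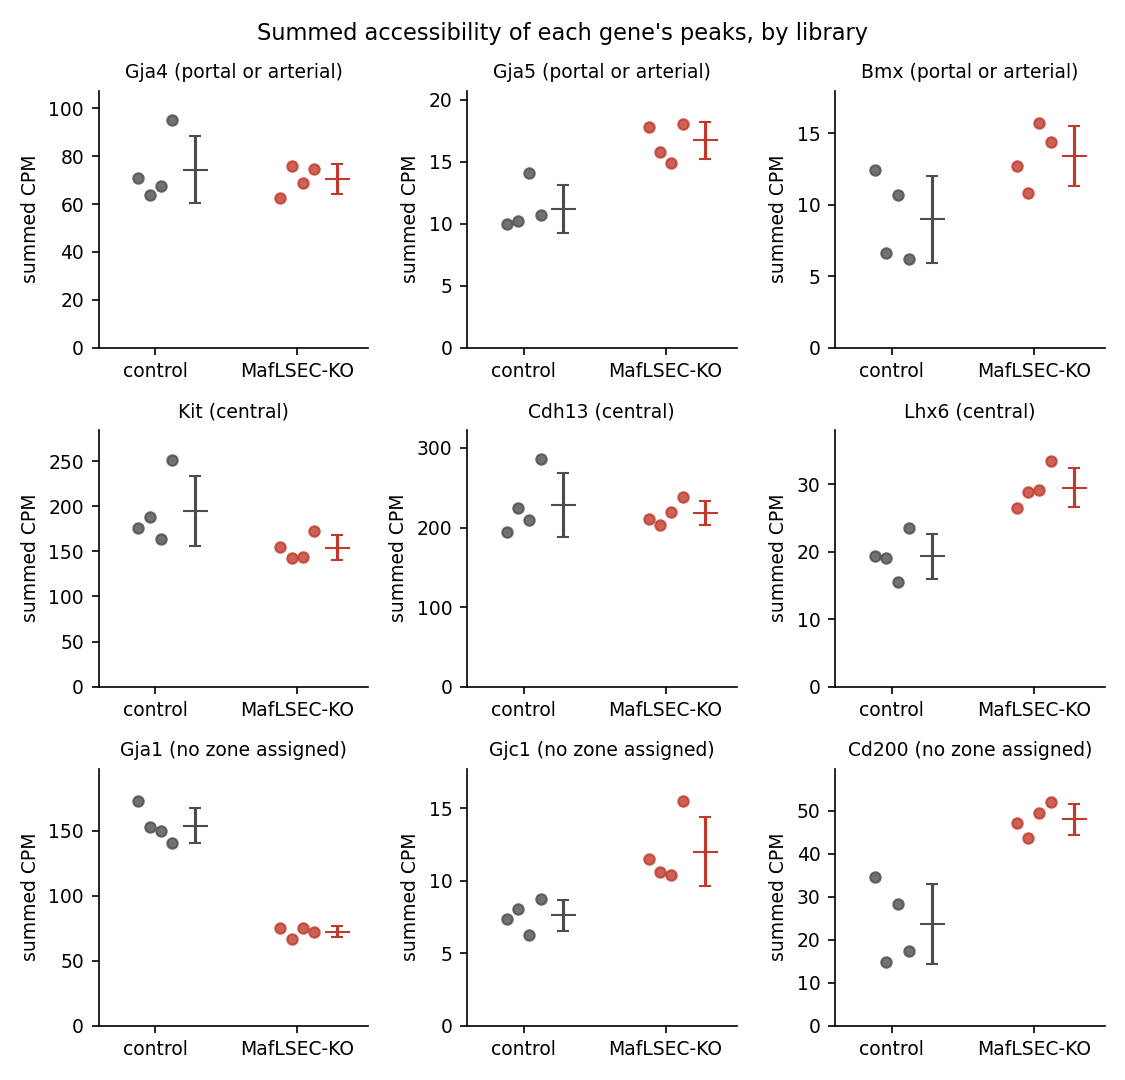
Summed CPM over all peaks of each gene (vertical axis, from 0) in the 4 control libraries (grey points) and the 4 MafLSEC-KO libraries (red points), in replicate order from left to right within a group. Bars give the mean and SD; the groups are apart for Gja5, Lhx6, Gja1, Gjc1 and Cd200, and the Gja1 sum goes from 154 to 72.5.

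At the level of single peaks, 10 of the 57 rose, 11 fell and 36 did not pass the test. With the replicate number as a block, 18 rose and 12 fell. Of the 58268 peaks tested in all, 8.97% rose and 6.45% fell. At 24 of the 57 peaks the groups were apart, against 19.4% of all peaks. Peaks of a gene share its surroundings and are not independent of one another: Kit held 6 of the 11 peaks that fell and Gja1 4, and Cd200 held 4 of the 10 that rose. Without control replicate 2, or without MafLSEC-KO replicate 4, 6 peaks rose in place of 10. The 7 peaks of the portal or arterial genes included 1 that rose and 0 that fell, in edgeR and in DESeq2, with 1 lower at an unadjusted p under 0.05. Among the 37 peaks of the central genes, 4 rose and 7 fell, and among the 13 peaks of the genes without a zone, 5 rose and 4 fell. The median log2 fold change was -0.08, 0.06 and 0.79 over the peaks of these 3 classes, and the difference between classes was not tested.

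**Figure D2:**
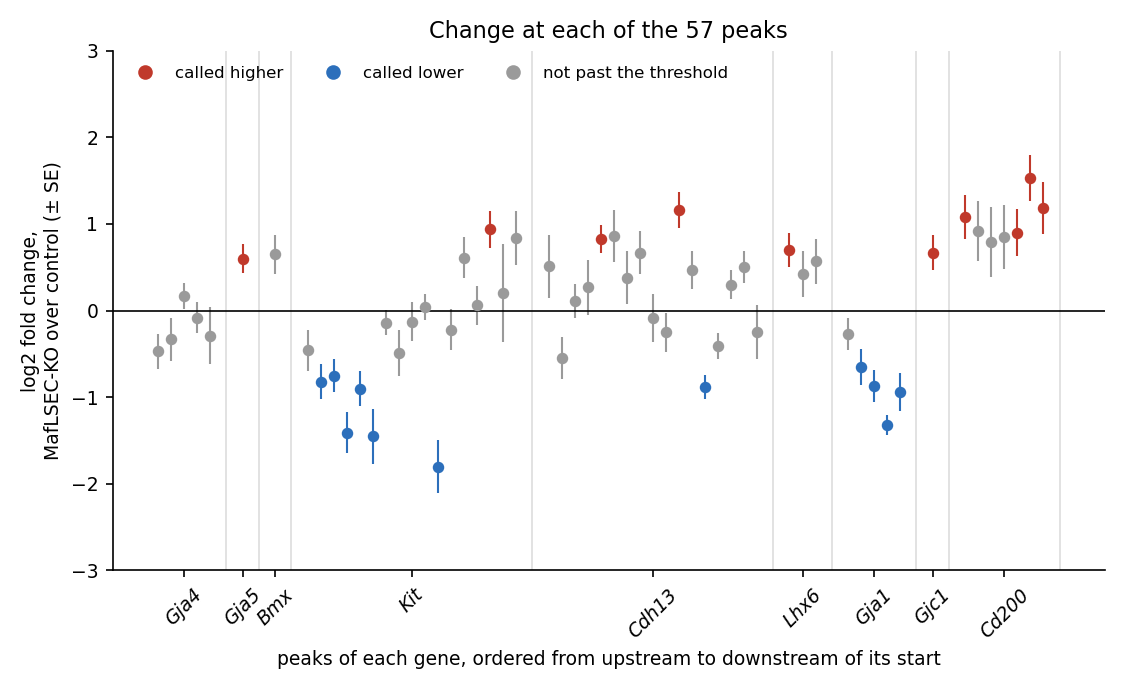
Log2 fold change, MafLSEC-KO over control, with SE (vertical axis) at each of the 57 peaks, ordered within a gene from upstream to downstream of its start. Red points rose, blue points fell and grey points did not pass the test; every Cd200 peak lies above 0 and every Gja1 peak below it, whereas Kit and Cdh13 have peaks on both sides.

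Of the portal or arterial genes, Gja5 rose, and Gja4 and Bmx did not pass the test. Gja5 encodes connexin Cx40, a gap junction protein of arterial endothelium. Its 1 peak, on chromosome 3 (97025229 to 97025973), lay 6.8 kb upstream of the annotated start and was classed as intergenic by the authors' annotation, although it falls inside the longer Gja5 gene model of GENCODE, outside its exons. CPM at this peak was 9.81, 10.3, 13.8 and 10.5 in controls and 17.9, 16.1, 15.1 and 18.0 in MafLSEC-KO libraries. Every MafLSEC-KO library was above every control library, and control replicate 3 stood above the other controls. The peak rose from 11.1 ± 1.82 to 16.8 ± 1.38 CPM (mean ± SD over 4 libraries each). Its log2 fold change was 0.60 with an SE of 0.17 (adjusted p = 0.0203). As a gene sum the log2 fold change was 0.58 (adjusted p = 0.0439). Both calls were near the threshold: the peak passed in 3 of the 8 fits that leave out 1 library, with an adjusted p of up to 0.08, and the sum in 2 of the 8, with an adjusted p of up to 0.134. They failed without control replicate 1 or 2 and without MafLSEC-KO replicate 1, 2 or 4, and the sum also without MafLSEC-KO replicate 3. Scaled by library totals only, the sum did not pass either (0.57, adjusted p = 0.0504). The peak's central 300 bases are shown because it is the only open region assigned to Gja5. They hold the FOX letters TGTTTAC on the reverse strand and the GATA letters AGATAA, both in capitals (forward strand, chr3:97025452-97025751, GRCm38).
Gja5, 6.8 kb upstream: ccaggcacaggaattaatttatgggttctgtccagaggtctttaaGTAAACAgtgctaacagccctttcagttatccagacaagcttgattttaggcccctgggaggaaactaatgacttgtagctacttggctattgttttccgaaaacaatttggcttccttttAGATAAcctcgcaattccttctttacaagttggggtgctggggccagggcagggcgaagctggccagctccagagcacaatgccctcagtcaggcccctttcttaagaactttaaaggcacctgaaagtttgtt

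Gja4, the gene of connexin Cx37, which is joined with Cx40 in arterial gap junctions, had 5 peaks, and none passed the test in edgeR or DESeq2, with 1 lower at an unadjusted p under 0.05. The summed CPM was 71.0, 64.0, 67.6 and 95.0 in controls and 62.6, 76.1, 68.7 and 74.7 in MafLSEC-KO libraries, and the groups overlapped throughout. The log2 fold change of the sum was -0.08 ± 0.128 (adjusted p = 0.766). At the start site (chromosome 4, 127313225 to 127314573) the peak held 30.4 ± 5.67 CPM in controls and 34.3 ± 5.23 in MafLSEC-KO libraries (log2 fold change 0.17, adjusted p = 0.514). It covers the first exon and the start of intron 1. The other 4 peaks, 2 upstream and 2 downstream, had log2 fold changes between -0.47 and -0.08. Without control replicate 4, which was the highest control library, the sign of the sum turned (0.07, adjusted p = 0.711).

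Bmx encodes a cytoplasmic tyrosine kinase of the TEC family, active in arterial endothelium and endocardium. Its 1 peak lies at the promoter on chromosome X (164258064 to 164258867). CPM was 12.2, 6.72, 10.5 and 6.10 in controls and 12.7, 11.1, 15.9 and 14.4 in MafLSEC-KO libraries. Control replicates 1 and 3, the shallow libraries, were the higher controls, and replicate 1 reached into the range of the MafLSEC-KO libraries. The paper used female and male mice, and no library is tied to an animal. Sex was a term in no fit, so its part in the values of this X-linked gene was not tested. The mean was 8.87 ± 2.93 in controls and 13.5 ± 2.09 in MafLSEC-KO libraries (log2 fold change 0.65 ± 0.224, adjusted p = 0.0572). The gene sum gave 0.62 (adjusted p = 0.131), and 1.07 (adjusted p = 0.00382) without control replicates 1 and 3. With the library total as a covariate it was 0.83 (adjusted p = 0.00285). The peak itself rose with the replicate number as a block (0.67, adjusted p = 0.00445), with the library total as a covariate (0.86, adjusted p = 0.000863) and without control replicate 1 (0.82, adjusted p = 0.0182), replicate 3 (0.74, adjusted p = 0.042) or both (1.07, adjusted p = 0.00116).

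**Figure D3:**
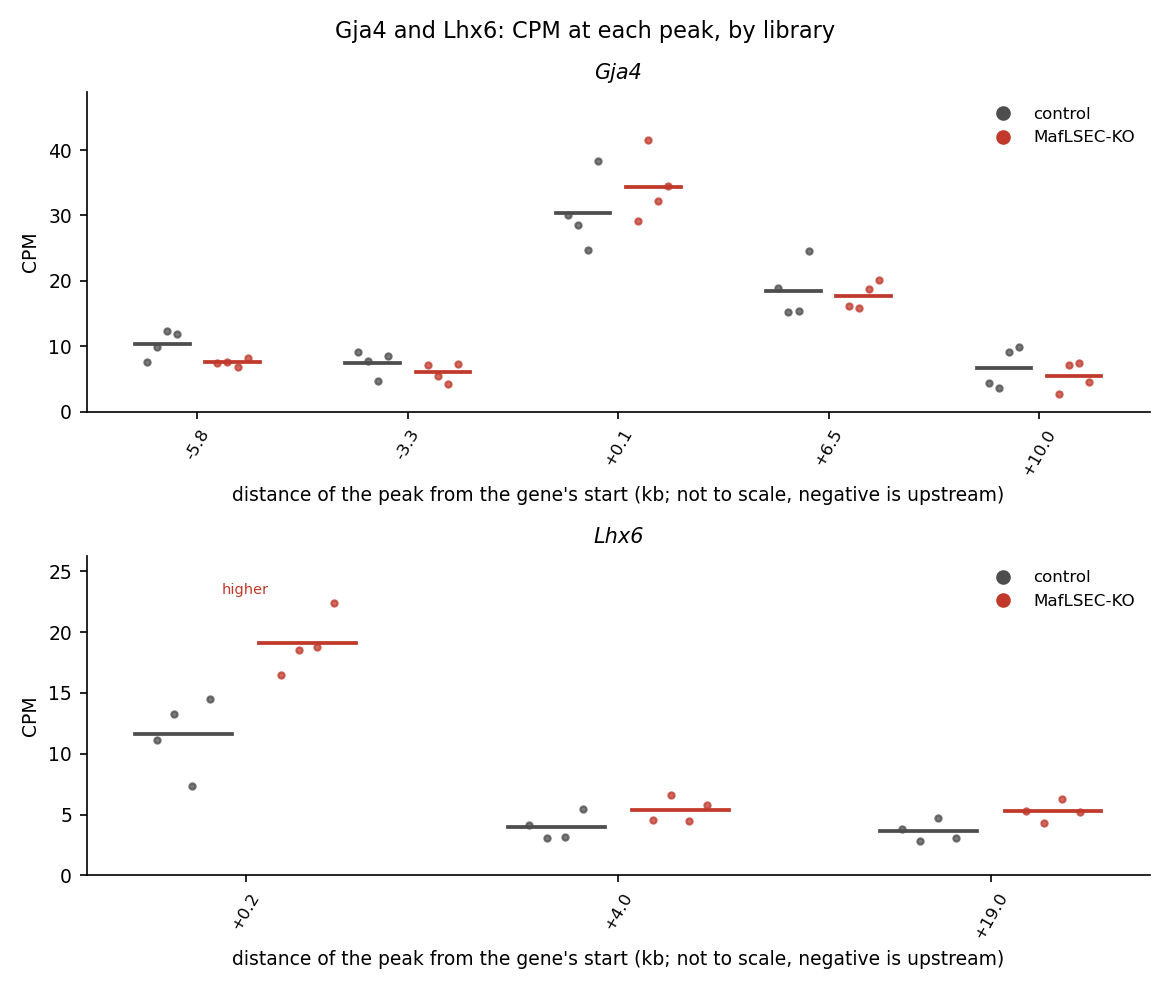
CPM at each peak (vertical axis, from 0) of Gja4 and Lhx6 in the control (grey) and MafLSEC-KO (red) libraries, with lines at the group means; peaks are labelled with their distance from the gene's start in kb. The groups overlap at all 5 Gja4 peaks, and only the Lhx6 start-site peak is marked as higher.

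Among the central genes, single peaks of Kit and Cdh13 moved in both directions while their sums did not pass the test, and Lhx6 rose. Kit encodes the receptor tyrosine kinase for stem cell factor and is also expressed by mast cells. The summed CPM of its 17 peaks was 176, 188, 164 and 251 in controls and 155, 143, 144 and 173 in MafLSEC-KO libraries. Control replicate 4 was far above the rest, and MafLSEC-KO replicate 4 lay above control replicate 3 only. The means were 195 ± 38.6 and 154 ± 14.0, a log2 fold change of -0.34 ± 0.124 (adjusted p = 0.106). The sum fell with the library total as a covariate (-0.44, adjusted p = 0.00016) and without control replicates 1 and 3 (-0.52, adjusted p = 0.00731), and was -0.20 (adjusted p = 0.139) without control replicate 4. Of 5 mast cell genes searched, only Mcpt4 had a peak, at 2.23 to 4.80 CPM in controls and 5.15 to 6.48 in MafLSEC-KO libraries. Mcpt4 did not pass the test (log2 fold change 0.81, adjusted p = 0.0978). The part of mast cells in the Kit values was not tested.

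The Kit peaks differed by their position along the locus, a contrast seen in the values and not tested as such. Of 6 peaks more than 1000 bases upstream of the start, 5 fell and the most distant one did not pass the test, with log2 fold changes from -1.45 to -0.46. The start-site peak (chromosome 5, 75574697 to 75576132) held 27.2, 32.0, 29.0 and 41.3 CPM in controls and 28.8, 28.9, 27.3 and 33.4 in MafLSEC-KO libraries. These groups overlapped, and the log2 fold change was -0.14 ± 0.146 (adjusted p = 0.576). Of 10 peaks more than 1000 bases downstream, 1 rose, 1 fell and 8 did not pass, with a median of 0.05. No other gene with a peak in the table starts within 200000 bases of the Kit start.

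The upstream peak with the smallest p lay 91.1 kb from the start (75483630 to 75484129), in intergenic sequence. It held 7.45, 9.21, 10.8 and 14.6 CPM in controls and 4.28, 3.78, 4.49 and 3.58 in MafLSEC-KO libraries. All controls were above all MafLSEC-KO libraries, and the fall was 2.65-fold (log2 fold change -1.41 ± 0.235, adjusted p = 0.000393). At 38.9 kb upstream (75535962 to 75536220) CPM was 6.36, 5.97, 4.19 and 8.81 in controls and 1.33, 1.66, 2.82 and 3.41 in MafLSEC-KO libraries. The groups were again apart, with a log2 fold change of -1.45 ± 0.317 (adjusted p = 0.00375). At 83.6 kb upstream (75490923 to 75491758) the mean went from 21.3 ± 5.96 to 11.5 ± 2.3 CPM (log2 fold change -0.90, adjusted p = 0.00459). The peaks 103.7 and 170.8 kb upstream fell by 0.75 and 0.82 on the log2 scale, the latter with overlapping groups. These distal peaks are far from the start, and the table's assignment to Kit rests on distance alone.

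Inside the gene, 1 peak in intron 1, 26.0 kb downstream of the start (75600870 to 75601143), had the most negative log2 fold change of the 57 peaks. It held 7.63, 6.72, 5.24 and 5.20 CPM in controls and 1.62, 1.20, 2.61 and 1.62 in MafLSEC-KO libraries. No library of one group came near the other group, and the log2 fold change was -1.80 ± 0.302 (adjusted p = 0.000406), a 3.48-fold fall. Its neighbour in the same intron, 21.6 kb from the start, was at 19.6 ± 2.56 and 20.2 ± 2.23 CPM (log2 fold change 0.04, adjusted p = 0.905). Beyond the gene's end, 94.1 kb downstream of the start (75668731 to 75669420), CPM was 6.90, 7.21, 4.19 and 9.64 in controls and 14.0, 14.0, 12.0 and 14.8 in MafLSEC-KO libraries. There every MafLSEC-KO library was above every control, with a log2 fold change of 0.94 ± 0.215 (adjusted p = 0.00532). Kit thus had neighbouring regions that fell, did not pass the test and rose, and its sum combines them. All 5 Kit peaks called and named here with coordinates passed in each of the 8 fits that leave out 1 library.

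The central 300 bases are shown for the Kit region with the smallest p and for the intron 1 region with the largest fall, the latter chosen after its values were seen (forward strand, chr5:75483730-75484029 and chr5:75600857-75601156, GRCm38). Capitals mark the GATA letters AGATAA, read on the reverse strand, in each and the TCF/LEF letters CTTTGAT in the intron 1 region, where the window runs past both edges of the narrower peak.
Kit, 91.1 kb upstream: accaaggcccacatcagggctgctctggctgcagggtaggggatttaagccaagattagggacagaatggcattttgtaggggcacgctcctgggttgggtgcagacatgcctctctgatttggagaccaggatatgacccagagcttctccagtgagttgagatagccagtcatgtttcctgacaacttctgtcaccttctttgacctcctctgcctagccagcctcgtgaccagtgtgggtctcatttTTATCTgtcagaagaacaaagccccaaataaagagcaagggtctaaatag
Kit, 26.0 kb downstream, intron 1: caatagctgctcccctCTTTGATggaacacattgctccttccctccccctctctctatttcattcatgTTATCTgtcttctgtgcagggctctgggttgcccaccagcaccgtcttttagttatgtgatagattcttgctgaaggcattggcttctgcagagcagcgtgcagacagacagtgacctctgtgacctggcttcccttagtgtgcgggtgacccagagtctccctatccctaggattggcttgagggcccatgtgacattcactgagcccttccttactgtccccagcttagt

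Cdh13 encodes T-cadherin, a cadherin held in the membrane by a lipid anchor that binds adiponectin. The summed CPM over its 17 peaks was 194, 224, 209 and 286 in controls and 211, 203, 220 and 239 in MafLSEC-KO libraries. The groups overlapped, with control replicate 4 the highest of all, and the log2 fold change was -0.07 ± 0.113 (adjusted p = 0.779). Its sign turned without control replicate 4 (0.06, adjusted p = 0.659). The start-site peak (chromosome 8, 118283642 to 118284882) was at 11.9 ± 2.55 and 13.0 ± 2.02 CPM (log2 fold change 0.11, adjusted p = 0.761).

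Within this sum, 3 intronic peaks passed the test. The region 418.1 kb downstream of the start, in intron 3, held 45.8, 64.8, 51.4 and 66.8 CPM in controls and 31.4, 29.3, 28.3 and 35.4 in MafLSEC-KO libraries. The mean fell from 57.2 ± 10.2 to 31.1 ± 3.15 CPM (log2 fold change -0.88 ± 0.138, adjusted p = 0.000215). The groups did not overlap. The adjacent peak at 429.8 kb (118712370 to 118714391) had means of 56.6 ± 14.2 and 43.0 ± 3.72 (log2 fold change -0.41, adjusted p = 0.0727), with overlapping groups. It passed the test as a fall in 6 of 15 alternatives. These were the fits without control replicate 1 (-0.49, adjusted p = 0.0414), without control replicate 3 (-0.52, adjusted p = 0.0232), without both (-0.66, adjusted p = 0.00118), with library totals only (-0.43, adjusted p = 0.0471), with the replicate number as a block (-0.38, adjusted p = 0.0032) and with the log2 total as a covariate (-0.54, adjusted p = 0.000191).

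Both Cdh13 peaks that rose lay closer to the start. The peak 378.9 kb downstream, in intron 2 (118662140 to 118662838), held 5.45, 4.73, 4.54 and 8.36 CPM in controls and 12.5, 12.6, 13.7 and 14.2 in MafLSEC-KO libraries. The MafLSEC-KO libraries lay close together and above all controls, with a log2 fold change of 1.16 ± 0.212 (adjusted p = 0.000864). The peak 110.5 kb downstream, in intron 1 (118393772 to 118394551), held 11.6, 12.1, 15.0 and 14.5 CPM in controls and 21, 26.8, 20.9 and 25.9 in MafLSEC-KO libraries. It rose by a log2 fold change of 0.83 ± 0.161 (adjusted p = 0.0015), again with no overlap. The other 14 Cdh13 peaks did not pass the test. Each of these 3 calls held in all 8 fits that leave out 1 library.

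The central 300 bases of the risen region of intron 2 are shown as the Cdh13 region with the largest rise, chosen after its values were seen (forward strand, chr8:118662340-118662639, GRCm38). Capitals mark the GATA letters AGATAA on each strand.
Cdh13, intron 2, rose: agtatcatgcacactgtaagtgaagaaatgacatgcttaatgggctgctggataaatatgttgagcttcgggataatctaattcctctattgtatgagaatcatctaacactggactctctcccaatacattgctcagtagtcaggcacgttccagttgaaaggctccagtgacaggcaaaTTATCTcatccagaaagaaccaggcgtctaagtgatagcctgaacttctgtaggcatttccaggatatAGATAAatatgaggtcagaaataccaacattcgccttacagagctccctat

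**Figure D4:**
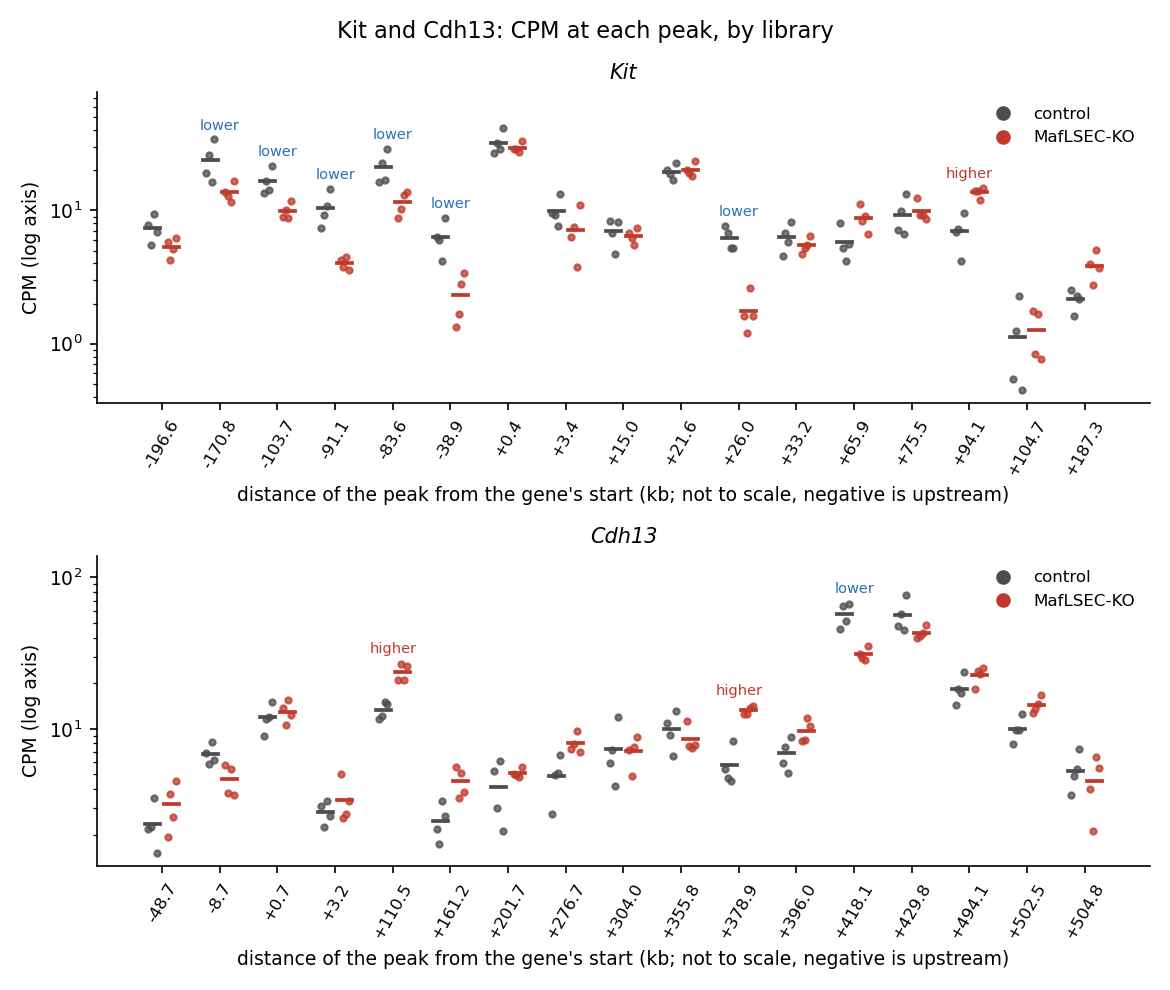
CPM on a log axis at each peak of Kit and Cdh13 in control (grey) and MafLSEC-KO (red) libraries, with lines at the group means and peaks labelled with their distance from the start in kb. For Kit, 5 of 6 upstream peaks are marked lower and the start-site peak carries no mark; for Cdh13, 2 peaks are marked higher and the peak at 418.1 kb is marked lower.

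Lhx6 encodes a LIM homeobox transcription factor best known from interneurons of the forebrain. The summed CPM of its 3 peaks was 19.4, 19.0, 15.5 and 23.5 in controls and 26.4, 28.9, 29.2 and 33.4 in MafLSEC-KO libraries. Every MafLSEC-KO library was above every control, and the sum rose from 19.3 ± 3.29 to 29.5 ± 2.90 (log2 fold change 0.60 ± 0.146, adjusted p = 0.0203). Leaving out control replicate 2, or MafLSEC-KO replicate 2, 3 or 4, ended this call (highest adjusted p 0.077), and it did not pass without control replicates 1 and 3 together (0.47, adjusted p = 0.0525). The promoter peak (chromosome 2, 36104606 to 36105844) carried most of the sum, with 11.1, 13.3, 7.34 and 14.5 CPM in controls and 16.5, 18.5, 18.8 and 22.4 in MafLSEC-KO libraries. It rose by a log2 fold change of 0.70 ± 0.194 (adjusted p = 0.0183) and lost that call without MafLSEC-KO replicate 4 (adjusted p = 0.0744). The call also failed without control replicates 1 and 3 together (0.44, adjusted p = 0.0969). This peak spans 3 transcript starts of Lhx6 in GENCODE. The 2 intronic peaks, 4.0 and 19.0 kb downstream, had log2 fold changes of 0.42 and 0.57 and did not pass.

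Gja1, Gjc1 and Cd200, the genes given no zone, showed the largest fall and the largest rise of a gene sum among the 9. Gja1 encodes connexin Cx43, the most widely used gap junction protein. Its summed CPM was 173, 153, 150 and 141 in controls and 75.4, 67.0, 75.6 and 72.1 in MafLSEC-KO libraries. The lowest control was far above the highest MafLSEC-KO library. The mean fell from 154 ± 13.5 to 72.5 ± 4.04, 2.13-fold (log2 fold change -1.09 ± 0.0928, adjusted p = 1.92e-05). It fell in all 17 alternative fits, with log2 fold changes between -1.39 and -1.02. Smooth muscle and stellate cells also use Cx43. Summed CPM over 4 smooth muscle genes, all with peaks, was 74.0 to 78.2 in controls and 66.4 to 72.6 in MafLSEC-KO libraries, with 0 of the 4 genes past the test in edgeR or DESeq2 and 1 lower at an unadjusted p under 0.05. Over the 3 stellate genes with a peak it was 17.6 to 23.3 in controls and 15.4 to 18.6 in MafLSEC-KO libraries. The part of these cells in the Gja1 values was not tested.

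Of the 5 Gja1 peaks, 4 fell and the most distant did not pass the test. The start-site peak (chromosome 10, 56376957 to 56379481) extends from the first exon into intron 1 and held most of the counts. CPM was 115, 99.5, 92.9 and 93.4 in controls and 39.7, 40.0, 41.4 and 38.7 in MafLSEC-KO libraries. Both groups were tight and far apart, with a SD of 10.1 in controls and a mean of 40.0 ± 1.09 in MafLSEC-KO libraries (log2 fold change -1.32 ± 0.111, adjusted p = 4.53e-07). It ranked 37 by p among all 58268 peaks tested. In intron 1, 4.5 kb downstream (56381623 to 56382025), CPM fell from 13.7 ± 1.94 to 7.24 ± 2.33 (log2 fold change -0.94, adjusted p = 0.00663). Upstream, the peak at 3.9 kb (56373211 to 56373584) fell from 13.2 ± 0.857 to 7.29 ± 1.25 (-0.87, adjusted p = 0.00317). The peak at 8.0 kb (56369060 to 56369540) held 15.3, 13.3, 13.6 and 9.41 CPM in controls and 6.64, 8.02, 6.89 and 10.6 in MafLSEC-KO libraries. There control replicate 4 lay below MafLSEC-KO replicate 4. The call (-0.65 ± 0.209, adjusted p = 0.0398) failed when control replicate 1, 2 or 3 was left out, or MafLSEC-KO replicate 1, 2 or 3 (highest adjusted p 0.119). That call also failed without control replicates 1 and 3 together (-0.48, adjusted p = 0.153). The peak 37.9 kb upstream was at 12.9 ± 2.11 and 10.6 ± 1.10 CPM (-0.27, adjusted p = 0.353). The middle of the start-site peak, in intron 1, is shown because it had the smallest p of the 57 peaks; none of the letters searched below occur in it, so it has no capitals (forward strand, chr10:56378070-56378369, GRCm38).
Gja1, 0.9 kb downstream of the start: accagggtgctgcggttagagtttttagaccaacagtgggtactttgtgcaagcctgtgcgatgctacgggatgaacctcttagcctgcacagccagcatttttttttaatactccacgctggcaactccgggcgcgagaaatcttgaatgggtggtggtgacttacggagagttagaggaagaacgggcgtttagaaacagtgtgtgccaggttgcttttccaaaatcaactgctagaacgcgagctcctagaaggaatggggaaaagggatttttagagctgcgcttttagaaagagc

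Gjc1 encodes connexin Cx45, known from smooth muscle and the conduction system of the heart. Its 1 peak covers the start and the 5′ untranslated first exon (chromosome 11, 102818390 to 102819669). CPM was 7.27, 8.21, 6.11 and 8.58 in controls and 11.5, 10.8, 10.6 and 15.4 in MafLSEC-KO libraries. All MafLSEC-KO libraries were above all controls, and replicate 4 was the highest of them. As a peak it rose (log2 fold change 0.67 ± 0.198, adjusted p = 0.0273), and as a gene, from the same counts but normalized and adjusted over genes, it did not pass (0.64 ± 0.199, adjusted p = 0.0602). The call of the peak failed without control replicate 1, 2 or 3 and without MafLSEC-KO replicate 1 or 4, with an adjusted p of up to 0.128. It failed as well without control replicates 1 and 3 together (0.51, adjusted p = 0.108). DESeq2 called the gene sum (0.64, adjusted p = 0.0308).

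Cd200 encodes a surface glycoprotein whose receptor restrains myeloid cells. The summed CPM over its 7 peaks was 34.5, 14.8, 28.3 and 17.3 in controls and 47.2, 43.6, 49.4 and 52.0 in MafLSEC-KO libraries. Control replicates 1 and 3 were nearest to the MafLSEC-KO libraries and still below all of them. The mean rose from 23.7 ± 9.27 to 48.0 ± 3.53, 2.07-fold (log2 fold change 1.05 ± 0.215, adjusted p = 0.00738). Since the higher controls were also the shallowest libraries, the comparison was repeated with the library total as a covariate (1.27, adjusted p = 2.76e-07) and without control replicates 1 and 3 (1.57, adjusted p = 2.52e-06). The part of depth in the spread of the controls was not tested. The sum rose in all 8 fits that leave out 1 library, with an adjusted p of at most 0.0261.

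All 7 Cd200 peaks had a positive log2 fold change, between 0.79 and 1.53, and 4 passed the test. The start-site peak (chromosome 16, 45408414 to 45409239) held 9.63, 3.48, 7.69 and 4.29 CPM in controls and 13.4, 11.2, 14.1 and 12.3 in MafLSEC-KO libraries. It rose by a log2 fold change of 1.08 ± 0.259 (adjusted p = 0.00714), with no overlap. The other peaks that rose lay beyond the 3′ end of the gene, 45.3, 59.1 and 79.4 kb from its start. At 59.1 kb (45349634 to 45350203) CPM was 5.27, 2.74, 5.24 and 2.86 in controls and 8.26, 10.8, 14.9 and 10.6 in MafLSEC-KO libraries. This was the largest rise among the 57 peaks, 2.88-fold (log2 fold change 1.53 ± 0.263, adjusted p = 0.000522), and the groups were apart. At 79.4 kb (45329367 to 45329968) the mean went from 3.08 ± 1.40 to 6.63 ± 0.961 CPM (1.18, adjusted p = 0.011), a call that failed without control replicate 2 (adjusted p = 0.0546). At 45.3 kb (45363417 to 45364091) it went from 3.85 ± 1.55 to 6.93 ± 0.604 (0.90, adjusted p = 0.0305), and the call failed without control replicate 2 or 4 and without any single MafLSEC-KO replicate (adjusted p up to 0.12). The region at 59.1 kb is shown because it rose most; capitals mark the RBPJ letters TGGGAA at both places where they occur (forward strand, chr16:45349769-45350068, GRCm38).
Cd200, 59.1 kb from the start: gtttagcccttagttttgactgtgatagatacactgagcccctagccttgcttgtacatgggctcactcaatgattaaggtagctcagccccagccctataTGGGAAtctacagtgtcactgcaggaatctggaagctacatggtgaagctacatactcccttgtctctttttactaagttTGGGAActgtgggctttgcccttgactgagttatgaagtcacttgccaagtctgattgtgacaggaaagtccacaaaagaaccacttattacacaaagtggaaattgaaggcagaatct

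**Figure D5:**
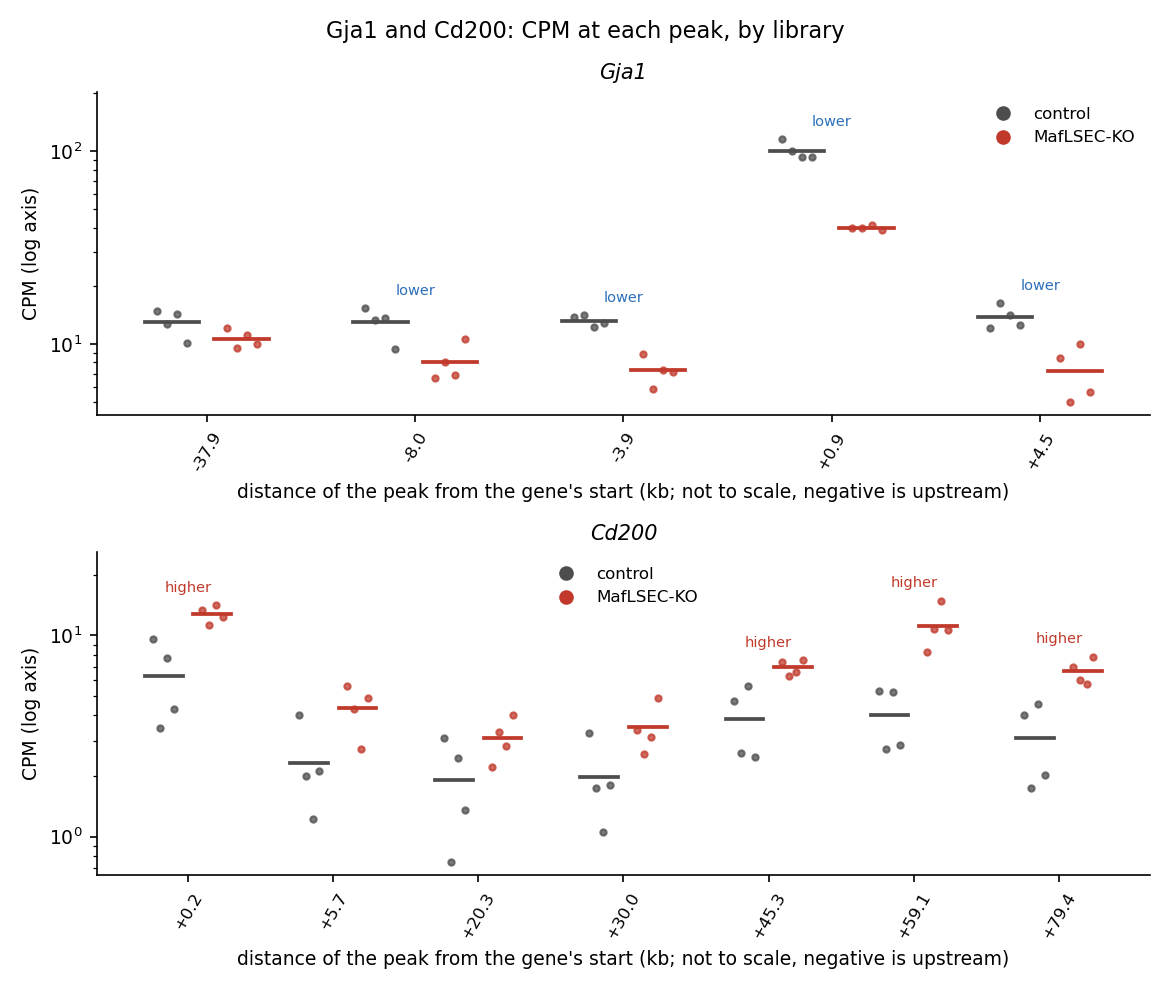
CPM on a log axis at each peak of Gja1 and Cd200 in control (grey) and MafLSEC-KO (red) libraries, with lines at the group means and peaks labelled with their distance from the start in kb. At the Gja1 start site the controls lie between 92.9 and 115 CPM and the MafLSEC-KO libraries between 38.7 and 41.4. The group mean of the Cd200 peak at 59.1 kb goes from 4.03 to 11.1 CPM.

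Per length of open chromatin, Gja1 stood apart in controls and not in MafLSEC-KO libraries. As summed CPM per kb of peak, the control levels in order were Gja1 at 35.1 ± 3.08 (SD, n = 4), Cdh13 at 19.3 ± 3.41, Gja4 at 18.5 ± 3.48, Kit at 17.3 ± 3.43, Gja5 at 15.1 ± 2.58, Bmx at 11.2 ± 3.77, Lhx6 at 8.94 ± 1.52, Cd200 at 6.64 ± 2.60 and Gjc1 at 5.95 ± 0.844. Apart from Gja1 and Cdh13, each gene in this order differed from the next by less than the sum of their SDs. In MafLSEC-KO libraries the same measure was highest for Gja5, at 22.4 ± 2.03, followed by Cdh13 at 18.4 ± 1.29, Gja4 at 17.5 ± 1.53, Bmx at 16.7 ± 2.62 and Gja1 at 16.5 ± 0.921. Kit (13.7 ± 1.24), Lhx6 (13.7 ± 1.34) and Cd200 (13.5 ± 0.990) were alike within their spread, and Gjc1 was lowest at 9.38 ± 1.85. The 2 groups thus gave different orders of the 9 genes on this scale.

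The wider families were read from lists of genes that are not members. Of 16 other connexin genes, 11 had a peak, 0 rose and 1 fell (Gjd2, log2 fold change -1.14, adjusted p = 0.0109), with a median of 0.11; at an unadjusted p under 0.05, 1 was higher, and DESeq2 called 0 higher. Of 5 other central genes, 0 rose, also at an unadjusted p under 0.05 and in DESeq2, and 2 fell, with a median of -0.51: Wnt2, a Wnt ligand of central endothelium, at -0.72 (adjusted p = 0.000163), and Rspo3, which enhances Wnt signalling, at -0.51 (adjusted p = 0.0289). The paper had reported lower Wnt2, Wnt9b and Rspo3 RNA in sequenced knockout cells, though not by in situ hybridization. It also names Wnt2 as a c-Maf target from footprints in these same ATAC-seq data. The fall of this list is therefore no independent finding. Of 13 other portal or arterial genes, 1 rose (Sema3g, 0.60, adjusted p = 0.0129) and 1 fell (the scavenger receptor gene Msr1, -0.53, adjusted p = 0.00367), with a median of 0.12. Among all genes tested, 5.65% rose and 4.05% fell.

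Genes starting within 200000 bases of a member were also read, since the table's assignment can split a locus between them. Starts here are those of GENCODE. For Gja5 this is the start of the longer gene model, and not the start from which its peak distance is given. There were 34, near 7 of the 9 members, of which 2 rose, 2 fell and 30 did not pass. These counts are close to the shares of all genes tested, of which 5.65% rose and 4.05% fell. Morn5, 56.0 kb from the Lhx6 start, rose (0.95, adjusted p = 0.00167), and the predicted gene Gm36595, 54.7 kb from the Gja1 start, fell (-0.64, adjusted p = 0.00209). Pir, 11.2 kb from Bmx, fell (-1.13, adjusted p = 0.0325), and 2810433D01Rik, 195.3 kb from Gjc1, rose (1.62, adjusted p = 0.00396). Kit and Cdh13 had no such neighbour.

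For each member whose sum passed the test, the 2 genes with the most similar pattern over the 8 libraries were found among 8890 genes with at least median accessibility, by Pearson r of log2 CPM. They were Slc36a4 and Sema3d for Gja1 (r = 0.992 for both), Rasgrp3 and Kmt5a for Lhx6 (0.983 for both), Mir21c (0.983) and Pllp (0.981) for Gja5, and Pard3 (0.975) and Sp3 (0.972) for Cd200. All points share the same 8 libraries and the split into groups, and the values are given as a description.

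Short recognition letters were counted on both strands in the central 300 bases of each of the 57 peaks and of all 58522 peaks. The MAF letters TGCTGAC were found in 1 of the 57 windows, against 5.98% of all. AP-1 letters (TGANTCA, which can overlap those of MAF) were in 7 of 57 against 11.5%, GATA letters (AGATAA) in 18 of 57 against 16.1%, FOX letters (TGTTTAC) in 3 of 57 against 4.19% and RBPJ letters (TGGGAA) in 19 of 57 against 26.8%. TCF/LEF letters (CTTTGAT) were in 2 of 57 against 3.68%, both in Kit peaks that fell, and ETS letters (CCGGAAG) in 1 of 57 against 5.7%. GATA letters were in 4 of 11 peaks that fell, 3 of 10 that rose and 11 of 36 that did not pass. A match is a run of letters and no evidence of binding. The windows of the called Lhx6 and Gjc1 peaks overlap untranslated exons and are not printed.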

How the data were processed

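LSECs were tagmented with Tn5, and libraries of 4 control and 4 MafLSEC-KO samples were sequenced. According to the methods, the authors used Trimmomatic for trimming, Bowtie2 for alignment to mm10, Picard against duplicates and MACS2 for peaks, then took out blacklisted regions, merged peaks with bedtools and annotated them with HOMER 4.11. A Tn5 offset correction is not given in the sources used here, nor whether peaks were called per library. The deposited table holds raw counts per peak and library, which were used here, and a normalized signal per library that the authors scaled from those counts by 1 factor each, with the authors' RPKM per library. The signal and RPKM columns were only checked. Columns with the authors' own fold changes and p-values were not used. The table is cut at a minimum of summed RPKM, so weaker regions are not analysed here. Rows without a gene name (68 peaks, 0.077% of counts) entered the test of peaks and not that of genes.

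Counts were tested with edgeR 4.0.16 in R 4.3.3 (TMM, filterByExpr, quasi-likelihood test, group as the only term, all 8 libraries, two-sided, Benjamini-Hochberg over all features), for 58268 peaks and for 17745 gene sums. The threshold for a call was an adjusted p of 0.05. The steps were also run on simulated counts with independent libraries, which leave out any sharing of animals between libraries. Depth was 5367124 to 13364062 counts per library. Peaks named with full values were, per gene, the start-site peak, the highest peak and up to 4 called peaks in each direction with the smallest p. A start-site peak was one annotated as promoter, or else one within 1000 bases of the start, and Gja5 has none. Alternatives were RLE factors, library totals only, DESeq2 1.42.0, no filter, the replicate number as a block, the log2 total as a covariate, leaving out each library, leaving out control replicates 1 and 3, and, for sums, promoter peaks only, peaks within 100000 bases and, added after seeing the data, peaks within 1000 bases. Whether replicate numbers pair the libraries was checked by correlating deviations from group means: same-numbered pairs gave r = 0.213, 0.181, 0.404 and 0.539 for gene sums, and 0.191, 0.097, 0.257 and 0.442 for peaks. Whether the numbers pair the libraries was not settled by these values, with 1 pair just under 0.1 for peaks. The main fits have group only, and the block is given beside them. In gene sums, control replicate 1 correlated more with MafLSEC-KO replicate 3 (0.384) than with its own number. MafLSEC-KO replicate 2 correlated more with control replicate 4 (0.239) than with its own number. Signs also went with depth: control replicates 1 and 3 were positive with MafLSEC-KO replicates 1 and 3 and negative with 2 and 4. Control replicate 4 had the opposite signs. Replicates 1 and 3 were the shallower libraries of each group, and the labels do not say what a number shares.

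Exon and gene positions are from GENCODE M21, and sequences from the GRCm38 assembly behind mm10. The sequence of 1 Cdh13 region is not reported here. The members, lists and zone classes were chosen with earlier results of these data known.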

Additional observations from a re-analysis of the deposited data

Results flagged for a closer look

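At the Gja5 peak 6.8 kb upstream of the start, control replicate 3 was at 13.8 CPM while the other controls were at 9.81 to 10.5, a gap of 0.835 of the group's range above Dixon's limit at 95% for a group of 4. It was the only such value among 66 groups of 4 libraries examined over the 9 gene sums and the peaks named with full values, where chance alone flags about 1 group in 20. The library lies on the side of the MafLSEC-KO values, and the log2 fold change of the peak was between 0.54 and 0.70 over the fits that leave out 1 library.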

How the results depend on the processing

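Among the 9 genes, 3 sums rose and 1 fell. With the replicate number as a block or the log2 library total as a covariate, 5 rose and 2 fell, and without control replicates 1 and 3, 2 fell. Promoter peaks alone gave 0 rises and 0 falls in edgeR, with only Bmx and Lhx6 left to test and both higher at an unadjusted p under 0.05, and peaks within 1000 bases of a start gave 1 rise. Leaving out 1 library at a time gave 1 to 4 rises. Of the 57 peaks, 10 rose, or 18 under the replicate block and 6 to 12 with 1 library left out, and 11 fell, or 10 to 14 over all alternatives. Beyond the gene sums of Bmx, Kit and Gjc1, the block turned the calls of the Bmx peak and of the Cdh13 peak at 429.8 kb, and of no other named peak or sum. Library totals only gave 2 rising sums in place of 3, since Gja5 missed the threshold (0.57, adjusted p = 0.0504), and RLE factors, DESeq2 and no filter left each count within 1.5 times. Over the 33 gene sums and named peaks, 448 of 514 alternative values kept their side of the threshold, 41 fell short of it, 21 came past it and 4 changed sign by over 1 SE with neither value past it. No called value changed sign. Calls of Gja1, Cd200, the named Kit peaks and the 3 Cdh13 peaks passed in all alternatives, except the Gja1 peak at 8.0 kb and the Cd200 peaks at 45.3 and 79.4 kb. Depth limits the weakest peaks: 104.7 kb downstream of the Kit start the controls held 3 to 13 counts, and the SE was 0.564.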
